A study of Mus musculus with 6 samples.

Results

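The Ifi200 cluster is a row of interferon-inducible genes on distal mouse chromosome 1 that holds Ifi202b, a gene put forward as an obesity candidate in New Zealand Obese mice. Its members here are Ifi202b, Ifi203, Ifi204, Ifi205, Mndal and Aim2. They were found by their gene symbols in the annotation of a 3' expression microarray, which gave 12 probe sets for the 6 genes, of 45101 probe sets for 19324 gene symbols on the array. Of these 12, 6 carry the symbol of 1 gene and 6 are shared by several symbols. Mndal has 2 probe sets of its own, Ifi202b, Ifi203, Ifi204 and Aim2 have 1 each, and Ifi205 has none and is read only through shared ones. The RNA came from liver of males aged 18 weeks: 3 arrays of New Zealand Obese mice (NZO), a polygenic model of obesity and type 2 diabetes, and 3 arrays of C57BL/KS mice (BKS, titled wt). Both are inbred strains, and the labels name no engineered allele or agent. Whether every array stands for an animal of its own is not stated, so p-values may measure technical spread alone. No genotype of the cluster in either strain was analysed here.

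Ifi200 proteins share a DNA-binding domain called HIN, and several also carry a pyrin domain through which proteins of this kind assemble. Aim2 is the cytosolic DNA sensor that builds an inflammasome with the adaptor Asc (Pycard) and caspase 1. The Ifi202b protein, p202, has HIN domains but no pyrin domain, and it can hold Aim2 back. Ifi204 is a nuclear and cytoplasmic DNA sensor often set beside human IFI16, and Ifi203, Ifi205 and Mndal are nuclear relatives best known from blood and immune cells. Many of these genes answer to interferons, whose signal reaches promoters through STAT and IRF proteins. The IRF proteins bind repeats of GAAA, the interferon-stimulated response element. Work on an obesity locus of NZO proposed Ifi202b because the C57BL/6J genome carries a deletion at the start of the gene.

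The promoter stretches below are shown because repeats of this kind lie before 3 members, Mndal, Ifi205 and Ifi203. The own probe sets of Mndal read lower in NZO, as did the probe set that only Ifi205 and Ifi211 share. The own probe set of Ifi203 did not separate the strains, and its shared ones went in different directions. Ifi202b, higher in NZO, is shown for contrast. They are C57BL/6J reference sequence (RefSeq promoter table, build GRCm38.p6), not sequence of BKS or NZO. The table held windows of 250 bases before to 50 after the annotated starts for 5 of the 6 members and 12 of 13 genes of the family, and no window for Ifi204. Capitals mark matches to GAAANNGAAA, searched on both strands, or, for the stretch named Ifi202b GAS, to TTCNNNGAA, the letters of a gamma-activated site, which read the same on both strands. The second Ifi202b stretch is the run of 60 bases just before its start. All 5 genes shown lie on the minus strand, and each line reads 5' to 3' along that strand, from chr1:173880204-173880233 (Mndal), chr1:173942508-173942537 (Ifi203), chr1:174031870-174031899 (Ifi205), chr1:173913064-173913093 (Ifi211), chr1:173982974-173983002 (Ifi202b GAS) and chr1:173982845-173982904 (Ifi202b start).
Mndal: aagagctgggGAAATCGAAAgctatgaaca
Ifi203: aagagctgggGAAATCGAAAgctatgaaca
Ifi205: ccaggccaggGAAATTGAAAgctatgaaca
Ifi211: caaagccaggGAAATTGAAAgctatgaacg
Ifi202b GAS: ctgtcatgatTTCTCAGAAtaactactga
Ifi202b start: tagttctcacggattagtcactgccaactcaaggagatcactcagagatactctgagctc

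The Mndal and Ifi203 stretches were identical over all 30 bases, and that of Ifi205 shared 23 of 30 bases with Mndal. A match to GAAANNGAAA lay in windows of 3 members (Mndal, Ifi203 and Ifi205) and of 9 of the 12 family genes with a window. Of 32851 promoter windows of this length 3.44% held one, a share of windows and not of genes. The exact letters GAAATCGAAA, taken from the Mndal stretch itself, occurred in 16 of those windows, and 7 of the 16 belong to genes of this family. The Mndal match was thus given in advance, and the count describes likeness within the family only. For Ifi203 the match lies before one annotated start and not in the window of its other start, and both Mndal and Ifi205 have a further match on the opposite strand, the latter after its start. The windows of Ifi202b and Aim2 held no match to GAAANNGAAA, which says only that these letters are not in these windows. C57BL/6J is also the strain with the deletion named above, so neither a match nor its absence here describes the Ifi202b start of NZO or BKS. The TTCNNNGAA match of Ifi202b began at base -148 from its start, and such a match occurred in 8.30% of all windows.

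The arrays themselves differed in ways that touch the comparison. On the log2 scale the 6 medians were 5.08 to 5.22 and the lower quartiles 4.19 to 4.28. The upper quartiles spread more, from 6.93 in NZO replicate 1 to 7.24 in NZO replicate 2. Deposited values carry no detection call, so a level below the lower quartile is read only as near the bottom of the scale. The 2 arrays titled number 1 (replicate 1 of each strain here) had lower hybridization controls, 9.68 and 8.45, than the other 4 arrays, with 10.6 to 11.8. The gap between 3' and 5' probe sets of beta-actin, a measure of RNA integrity, was 1.72 to 2.33 in BKS and 1.29 to 1.39 in NZO. The same gap for Gapdh was 0.45 to 0.98 in BKS and -0.04 to 0.14 in NZO. Both gaps moved with strain. A control probe set for 18S RNA read 10.9 and 8.01 in BKS replicates 2 and 3, and 4.21 to 5.52 on the other arrays. The part of these measures in the results was not tested. BKS replicate 1 held the highest of the 3 BKS values at 10 of the 12 member probe sets, against 38.6% of all probe sets. The labels name no batch, and that the shared number 1 marks one is inferred from these controls. Results are therefore given also with the number 1 arrays as a block and for the other arrays alone, 2 against 2.

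The cluster split between the strains. Ifi202b was higher in NZO, Mndal and the shared probe set of Ifi205 and Ifi211 were lower, Ifi203 differed from probe set to probe set, and Ifi204 and Aim2 were dim in both strains. In whole liver, fewer cells of a type and less RNA per cell cannot be told apart. Neither probe sequences nor strain genotypes were analysed, so a poorer match of probes to one strain's sequence cannot be told apart from less RNA either. The 3 values of one strain lay wholly above those of the other at 6 of the 12 probe sets, 2 higher and 4 lower in NZO, against 15.3% of all probe sets (6.83% higher and 8.49% lower). These 6 are not separate observations. Both higher ones read Ifi202b. The lower ones are the 2 of Mndal and shared ones of Ifi211 with Ifi205 and of Ifi203, which followed the brighter Mndal one at r = 0.98 and 0.86. The counts of probe sets that follow carry the same limit. The median log2 fold change, always NZO minus BKS, was -0.23 over the 12 and 0.00 over all probe sets. In limma's moderated test with Benjamini-Hochberg adjustment over 45037 probe sets, none of the 12 passed an adjusted p of 0.05, which 0.424% of all probe sets did (0.191% higher and 0.233% lower in NZO), and 6 had an unadjusted p below 0.05, as 10.1% of all probe sets did. The smallest adjusted p was 0.0583. With the number 1 arrays as a block 2 were higher and 3 lower past the threshold (background 0.926% and 2.04%, in all 2.97%), and among 2 against 2 arrays the counts were again 2 and 3 (background 1.38% and 1.26%, in all 2.65%). With 1 probe set for each of 18193 genes, Mndal and Ifi202b were the members whose strains did not overlap, against 17.0% of genes. In the fit of these genes, 1 of the 5 members with an own probe set passed, Mndal, against 0.742% of genes. In that fit with the block, Mndal and Ifi202b passed, against 6.55% of genes (1.51% higher and 5.04% lower).

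**Figure D1:**
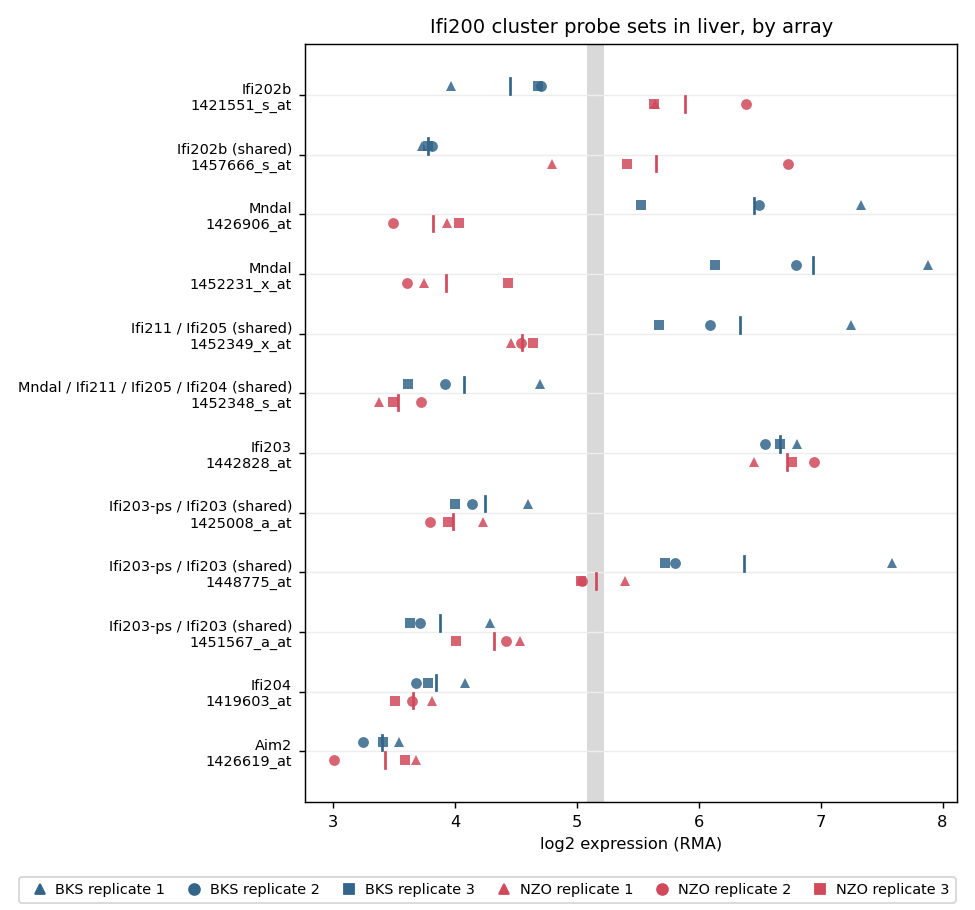
Log2 expression (x axis) of the 12 member probe sets (rows) on each of the 6 arrays, with BKS in blue, NZO in red, replicates by symbol, and strain means as short vertical lines; the grey band spans the array medians, 5.08 to 5.22. The 2 rows of Ifi202b have NZO to the right of BKS, the rows of Mndal and of the probe set shared by Ifi211 and Ifi205 have NZO to the left, and the strains overlap for Ifi204 and Aim2.

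Ifi202b, the Aim2-restraining member and NZO candidate, read 3.96, 4.70 and 4.68 in BKS and 5.64, 6.39 and 5.63 in NZO at its own probe set. All 3 NZO arrays lay above the array medians and all 3 BKS arrays below them. Means were 4.45 ± 0.42 (SD, n = 3) and 5.89 ± 0.43, which is 1.44 higher on the log2 scale (standard error 0.29, 95% interval 0.75 to 2.12) and 2.71-fold on the linear scale. It did not pass over all probe sets (limma, adjusted p = 0.137), and passed with the number 1 arrays as a block (limma, adjusted p = 0.0192). The difference was 1.68 between the number 1 arrays and 1.32 among the other 2 against 2 (limma, adjusted p = 0.0480). Because the BKS values lie below the array medians and carry no detection call, the size of the fold depends on a low value.

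The second Ifi202b probe set, shared with an uncharacterised locus, read 3.73, 3.81 and 3.78 in BKS, against 4.80, 6.73 and 5.41 in NZO. BKS arrays were tightly grouped near the bottom of the scale, whereas the NZO arrays spread over almost 2 log2 units with replicate 2 highest at both probe sets. Its log2 fold change was 1.87 (standard error 0.45, 95% interval 0.81 to 2.94), with limma adjusted p = 0.205, and 0.0463 with the block. It was 1.07 between the number 1 arrays and 2.27 among the others. Over the 6 arrays the 2 probe sets correlated at 0.93, a value that includes the strain difference they share. The name of both ends in _s_at, the array's mark for probes that can match more than 1 transcript, so signal from near-identical copies such as Ifi202a cannot be told apart from Ifi202b.

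Mndal, a pyrin and HIN domain protein of myeloid cells, showed the widest gap of the cluster. Its brighter probe set, whose name ends in _x_at (probes that may cross-match similar sequences), read 7.88, 6.80 and 6.13 in BKS and 3.74, 3.60 and 4.43 in NZO. Every BKS array lay above the array medians and every NZO array below, 2 of them also below the lower quartile. Means were 6.94 ± 0.88 (SD, n = 3) and 3.93 ± 0.44, so the level was lower by a log2 fold change of -3.01 (standard error 0.45, 95% interval -4.07 to -1.95), or 8.05-fold. The limma adjusted p was 0.0583 over all probe sets, 0.0370 with 1 probe set a gene, and 0.0127 with the block. The difference was -4.13 between the number 1 arrays and -2.45 among the others (limma, adjusted p = 0.0155), wider with BKS replicate 1 and present without it.

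The other Mndal probe set, whose name marks no shared probes, gave the same order of arrays within BKS. It read 7.33, 6.49 and 5.53 in BKS and 3.94, 3.49 and 4.03 in NZO, with all 3 NZO arrays below the lower quartile. Its log2 fold change was -2.63 (standard error 0.43, 95% interval -3.66 to -1.61; limma adjusted p = 0.0735, and 0.0115 with the block). The 2 probe sets correlated at 0.99 over the 6 arrays, strain difference included. Of the 6 NZO readings of the 2 Mndal probe sets all lay below the array medians, so the size of the fold rests on low values.

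Ifi205, a nuclear family member known from macrophages, can be followed only together with its relative Ifi211, through a shared _x_at probe set. It read 7.25, 6.09 and 5.67 in BKS, and in NZO the values were 4.46, 4.54 and 4.64. The latter were tightly grouped at 4.55 ± 0.09 (SD, n = 3), and the BKS arrays, at 6.34 ± 0.82, did not overlap with them. The log2 fold change was -1.79 (standard error 0.38, 95% interval -2.69 to -0.89; limma adjusted p = 0.156, and 0.0291 with the block). It stood at -2.78 between the number 1 arrays and -1.29 among the others. Over the 6 arrays it followed the brighter Mndal probe set at a Pearson correlation of 0.98. Probe sequences were not analysed here, so how much of this signal comes from Ifi205, from Ifi211 or from related transcripts cannot be told apart.

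A probe set shared by Mndal, Ifi211, Ifi205 and Ifi204 was dim on every array. It read 4.69, 3.92 and 3.61 in BKS and 3.38, 3.72 and 3.49 in NZO, and the strains overlapped. Its log2 fold change of -0.55 (95% interval -1.21 to 0.12; limma adjusted p = 0.598) was -1.32 between the number 1 arrays and -0.16 among the others.

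Ifi203, a family member found in the nucleus, gave no single answer over its 4 probe sets. Its own probe set lay above the array medians on all 6 arrays and did not separate the strains, with 6.80, 6.54 and 6.67 in BKS, against 6.45, 6.95 and 6.77 in NZO. Its log2 fold change was 0.05, and its 95% interval of -0.34 to 0.45 leaves out differences of the size seen for Ifi202b or Mndal (limma, adjusted p = 0.954). The brightest shared probe set, held in common with the pseudogene Ifi203-ps and an uncharacterised locus, read 7.58, 5.81 and 5.72 in BKS and 5.40, 5.04 and 5.03 in NZO. Here the strains did not overlap, by a narrow margin of BKS replicate 3 over NZO replicate 1, and BKS replicate 1 stood well above every other array. Its log2 fold change was -1.22 (95% interval -2.37 to -0.07; limma adjusted p = 0.464, and 0.0707 with the block), with -2.19 between the number 1 arrays and -0.73 among the others.

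The remaining shared Ifi203 probe sets lay below the array medians on all arrays and overlapped between strains. They had log2 fold changes of -0.26 (95% interval -0.74 to 0.22; limma adjusted p = 0.762) and 0.44 (the one also annotated to a further locus, 95% interval -0.11 to 0.98; limma adjusted p = 0.606). The Ifi203 stretch printed above is the same as that of Mndal in the reference sequence, which is not sequence of BKS or NZO. The own probe set of Ifi203 did not separate the strains, and those of Mndal were lower in NZO (log2 fold changes -3.01 and -2.63). The brightest shared Ifi203 probe set was also lower in NZO without overlap (-1.22), and its other shared ones overlapped. The part of this stretch in the strain differences was not tested.

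Ifi204, the DNA sensor related to IFI16, and Aim2, the inflammasome sensor, were below the lower quartile on all 6 arrays, the only 2 of the 12 probe sets of which this holds. Ifi204 read 4.08, 3.68 and 3.78 in BKS and 3.81, 3.65 and 3.51 in NZO. Its log2 fold change was -0.19, with a 95% interval of -0.57 to 0.19 (limma, adjusted p = 0.778). Aim2 read 3.54, 3.24 and 3.41 in BKS and 3.68, 3.01 and 3.59 in NZO, so the strains differed by 0.03 (95% interval -0.46 to 0.52; limma adjusted p = 0.980). The intervals bound a higher NZO level of Ifi204 at 0.19 and of Aim2 at 0.52 on this scale, while a lower level would be hard to see so near the bottom of it.

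**Figure D2:**
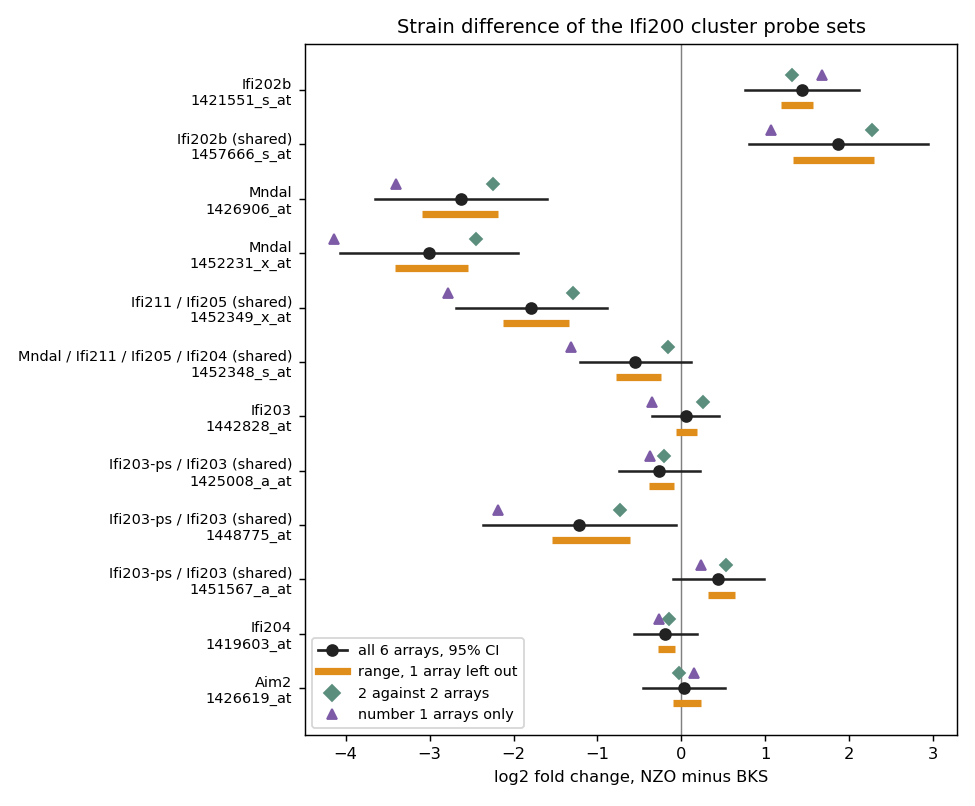
Log2 fold change, NZO minus BKS (x axis), of each member probe set (rows): black points with 95% intervals are all 6 arrays, orange bars the range with 1 array left out, green diamonds the 2 against 2 arrays and purple triangles the number 1 arrays alone. Ifi202b stays to the right of 0 (1.44 and 1.87) and Mndal to the left (-3.01 and -2.63) in every form shown, while the brightest shared Ifi203 probe set runs from -2.19 to -0.73 between the last 2 forms.

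In the annotation's order the cluster runs from Aim2 through Ifi213, Ifi209, Ifi207 and Ifi204 to Mndal, Ifi211, Ifi203, Ifi202b and Ifi205. The strain differences that own probe sets could read lay at Mndal and Ifi202b, in the stretch from Mndal to Ifi205. The lower probe set shared by Ifi211 and Ifi205 places no difference at either gene alone. In this stretch the lower Mndal and the higher Ifi202b stood only 2 family genes apart (Ifi211 and Ifi203). Toward the other end, Aim2, Ifi213, Ifi207 and Ifi204 were below the lower quartile on all 6 arrays. Ifi206, Ifi214 and Ifi208, which also lie there, had no probe set of their own. A difference at that end could therefore be missed. Of the other family genes, 3 had a probe set of their own, and none passed over all genes. Ifi209 was at -0.50 (limma, adjusted p = 0.618), Ifi213 at -0.09 (0.893) and Ifi207 at -0.10 (0.902), and the strain means of all 3 lay under 6. Ifi209 again had its highest value, 6.46, in BKS replicate 1.

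Outside the cluster the measured neighbours separated the strains about as often as genes at large. Of 30 genes, 15 on each side, 1 passed over all genes and 6 did not overlap between the strains, against 17.0% of all genes, and their median log2 fold change was 0.03. The gene that fell was the dual specificity phosphatase Dusp23, 7 measured genes before Aim2, from 8.10 ± 0.03 (SD, n = 3) to 6.42 ± 0.04 (log2 fold change -1.69; limma adjusted p = 0.00346). The formin Fmn2, the second gene after Ifi205, was at 2.0 (limma, adjusted p = 0.0855, and 0.0156 with the block). Its other probe sets gave 1.69 and -0.17, the latter with both strain means under 4. The pentraxins Crp (-0.32) and Apcs (-0.03), both abundant liver products of this stretch, did not pass, and neither did Cadm3 (0.03), the gene next to Aim2. Both strain means lay under 6 for 18 of the 30 neighbours.

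**Figure D3:**
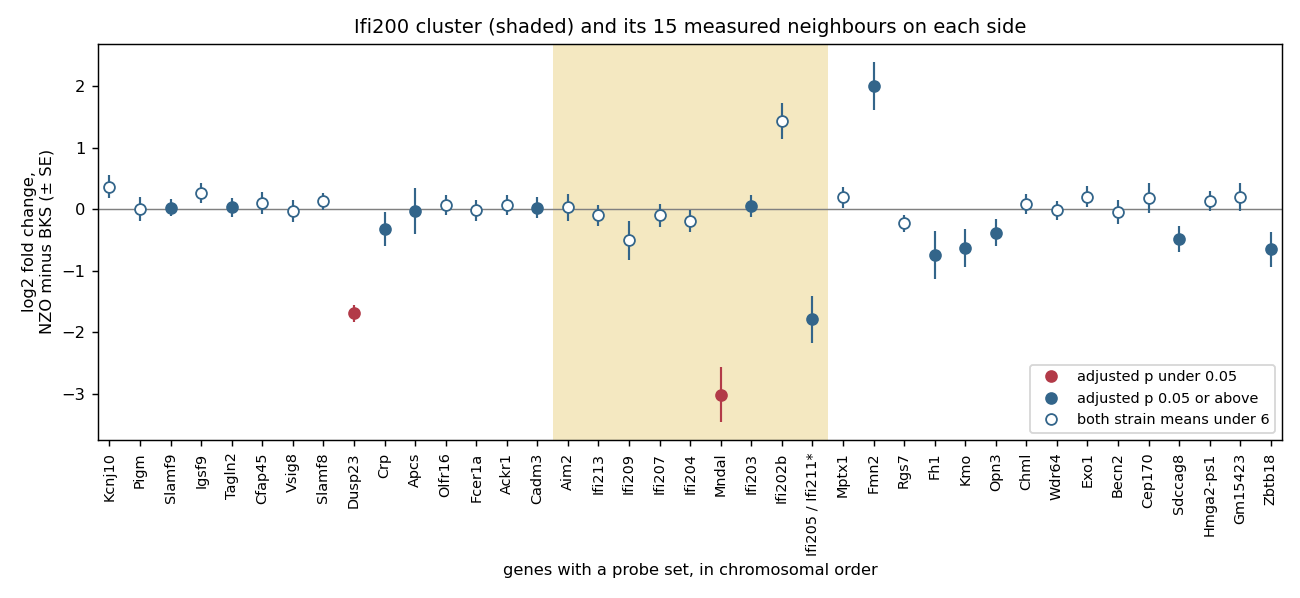
Log2 fold change, NZO minus BKS, with its standard error (y axis) for genes in chromosomal order (x axis, 1 probe set a gene, not to scale); the Ifi200 cluster is shaded, open points have both strain means under 6 and red points passed at adjusted p under 0.05. The point marked with an asterisk is the probe set shared by Ifi205 and Ifi211, placed at Ifi205 and taken from the fit over all probe sets; Mndal (-3.01) and Dusp23 (-1.69) are the red points and Ifi202b (1.44) and Fmn2 (2.0) the high ones.

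The partners of Aim2 gave no call. None of 13 measured inflammasome genes passed over all genes, and the list's median log2 fold change was -0.15, beside -0.03 over all genes. Il18, the cytokine matured by caspase 1, read 9.44, 9.81 and 10.12 in BKS and 8.20, 9.35 and 9.13 in NZO, without overlap (-0.90; limma adjusted p = 0.352, and 0.0220 with the block). Casp8 was at -0.69 (limma, adjusted p = 0.361). The adaptor Pycard (-0.33), Casp1 (0.20) and the pore former Gsdmd (-0.77) did not pass over all genes either, and Gsdmd did with the block (0.0239). Among 18 other nucleic acid sensing genes none passed, with a median of -0.26, and the kinase Tbk1 (-0.82) and the RNA sensor Ifih1 (-0.59) had the smallest p. With the block 2 were lower, against 5.04% of all genes, namely Tbk1 and Lrrfip1 (limma, adjusted p = 0.0428 and 0.0487). Without overlap 5 were lower in NZO and 0 higher, against 10.9% and 6.11% of all genes.

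Interferon signalling genes gave no calls, and interferon-induced genes a few in each direction. Of 19 genes of interferon receptors and signalling none passed, with a median of -0.31. The receptor chains Ifnar1 and Ifnar2 were at -0.59 and -0.34, and Irf7 and Irf9, which carry the signal to promoters, at -0.10 and 0.01. The signal inhibitor Socs3 (-2.21; limma adjusted p = 0.151) and Irf2 (-0.89; adjusted p = 0.213) had the smallest p, and both passed with the block (0.0334 and 0.0142). Of 33 type I interferon-induced genes 1 rose, 1 fell and 31 did not pass, with a median of -0.23, beside background shares of 0.324% and 0.418% of all genes. With the block, 2 were higher and 5 lower (1.51% and 5.04% of all genes). The antiviral GTPase Mx1 rose from 4.34 ± 0.07 (SD, n = 3) to 5.35 ± 0.14 (1.02; limma adjusted p = 0.0376). The apoptosis factor Xaf1 fell from 9.73 ± 0.14 to 5.76 ± 0.91 (-3.97; limma adjusted p = 0.00913), while its second probe set was at 1.17.

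Of the 210 measured genes of all lists, 4 passed, against 0.742% of all genes. With the block 22 passed (6.55% of all genes), and among 2 against 2 arrays 25 did (5.01%). Without overlap between the strains, 3 type I genes were higher in NZO and 12 lower, against 6.11% and 10.9% of all genes. Of 21 interferon gamma-induced genes 1 rose, the guanylate-binding protein Gbp7 (1.76; limma adjusted p = 0.0274), and 1 fell, the class I regulator Nlrc5 (-1.49; limma adjusted p = 0.0232), with a median of -0.15. With the block, 1 was higher and 4 were lower. The array means of the type I list were 7.90 to 8.02 in BKS and 7.29 to 7.78 in NZO, without overlap and lowest in NZO replicate 1. The means over all genes were 6.67 to 6.77 and 6.47 to 6.75.

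Hsd11b1, the cortisone-activating enzyme that earlier work tied to Ifi202b in fat tissue, was at 12.91 ± 0.13 (SD, n = 3) in BKS and 12.91 ± 0.40 in NZO (log2 fold change 0.00; limma adjusted p = 0.999). None of the 11 measured genes of that adipogenesis list passed, and the median was -0.13. Agt (-0.70) and Cebpb (-0.96) had the smallest p. Agt was the 1 gene of the list that was lower in NZO without overlap, as 10.9% of all genes were. It was also the 1 that passed with the block (limma, adjusted p = 0.0465), where 5.04% of all genes were lower.

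Because Ifi200 genes are known from immune cells, markers of liver cell types were set beside them. None of the 12 Kupffer cell markers passed, with array means of 7.03 to 7.85 in BKS and 7.09 to 7.97 in NZO. The defining marker Clec4f was at 8.48 and 8.50, a difference of 0.02. The 2 markers of smallest p, the scavenger receptor Cd68 (0.77; limma adjusted p = 0.403) and the complement receptor Vsig4 (1.08; limma adjusted p = 0.480), had higher means in NZO and overlapped between the strains. Within BKS, replicate 1 had the highest Kupffer mean (7.85, against 7.22 and 7.03). This was not particular to Kupffer cells. The monocyte, neutrophil, B cell, T and NK cell, endothelial and stellate means were also highest there, and the dendritic cell and cholangiocyte means were not. The same array had the highest signal of Mndal and of the probe set shared by Ifi205 and Ifi211. Its Ifi202b was the lowest (3.96 and 3.73 at its probe sets), the latter within a BKS range of 3.73 to 3.81. Within NZO, replicate 2 had the highest Kupffer mean (7.97) and the highest Ifi202b, but the lowest Mndal (3.60 and 3.49 at its own probe sets). The part of Kupffer cells in those spreads was not tested. Between the strains the Kupffer means overlapped, and the own probe sets of Mndal and Ifi202b did not. The part of Kupffer cells in the strain differences was not tested either.

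The array means of other immune cell lists also overlapped. Monocyte and recruited macrophage means were 5.88 to 6.14 in BKS and 6.06 to 6.19 in NZO, neutrophil means 5.17 to 5.78 and 5.53 to 5.69, and B cell means 5.41 to 5.64 and 5.47 to 5.61. T and NK cell means were 5.16 to 5.32 and 5.09 to 5.61, and dendritic cell means 6.14 to 6.24 and 5.92 to 6.25. None of the 10, 7, 8, 12 and 8 genes in these lists passed, and Chil3, Xcl1 and Xcr1 were below the lower quartile on every array. The smallest p belonged to Itgam (-0.34) and Cx3cr1 (0.29) for monocytes, Camp (0.37) and Ngp (0.29) for neutrophils, Ighm (-0.65) and Cr2 (0.28) for B cells, Xcl1 (0.22) and Cd3e (0.31) for T and NK cells, and Bst2 (-0.83) and Cd209a (0.17) for dendritic cells. Of single markers in these lists, Camp and Cd3g were higher and Cd4 lower in NZO without overlap, and Bst2, also an interferon-induced gene, passed with the block (limma, adjusted p = 0.0150).

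The sinusoidal endothelial list was above 0 for all 11 genes (median 0.45), with none past the test. Without overlap 4 were higher in NZO (Stab1, Stab2, Pecam1 and Fcgr2b), against 6.11% of all genes. With the block 3 passed, against 1.51%, namely the junction protein Pecam1 (0.71; limma adjusted p = 0.132, and 0.0297 with the block), the scavenger receptor Stab2 (0.92; 0.200 and 0.0345) and the Fc receptor Fcgr2b (0.77; 0.200 and 0.0435). The list's means were 6.54 to 6.94 in BKS and 6.92 to 7.73 in NZO. Within NZO they were highest in replicate 2, where Ifi202b was highest. Within BKS they were highest in replicate 1, where Ifi202b was lowest (3.96 and 3.73 at its probe sets). The part of these cells in the Ifi202b result was not tested. Stellate cell means were 7.24 to 7.79 and 7.17 to 7.64, cholangiocyte means 5.47 to 5.54 and 5.47 to 5.91, and none of those 10 and 5 genes passed. The smallest p belonged to Col3a1 (-1.17) and Lrat (0.56), which did not overlap, and to Epcam (0.73) and Sox9 (0.14), which did. Means of the 10 hepatocyte genes were 14.01 to 14.05 in BKS and 13.10, 14.08 and 14.09 in NZO, none passed, and Fgb (-0.48) and Hnf4a (-0.39) had the smallest p. These levels are high, so the tissue label was borne out on every array, with the lowest level in NZO replicate 1.

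**Figure D4:**
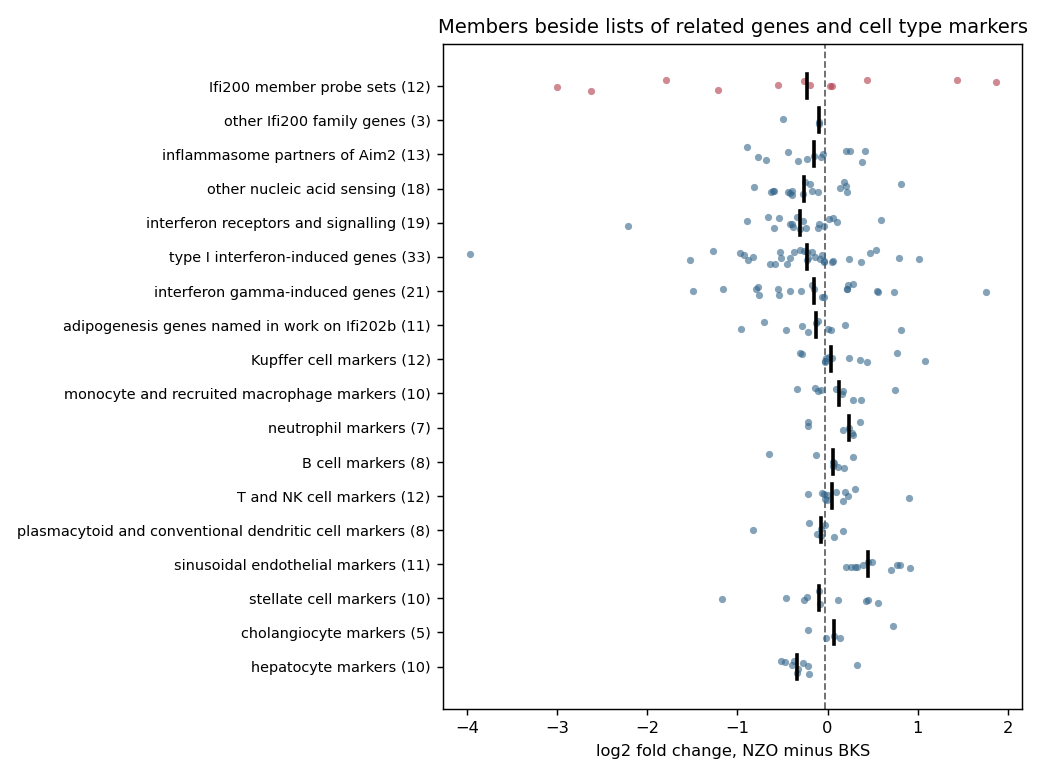
Log2 fold change, NZO minus BKS (x axis), of the 12 member probe sets (red) and of the genes of each list (blue, number measured in parentheses), with the list's median as a black bar and the median of all genes, -0.03, as a dashed line; points are shifted vertically for legibility. The members run from -3.01 to 1.87, and the sinusoidal endothelial genes are all to the right of 0.

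Genes whose levels ran most like a member's over the 6 arrays were sought among 5244 genes with a mean of at least 6 and a range of at least 1 log2 unit. This is a description with 6 points that share strain and array number. Nearest to Ifi202b were Ptprg, a receptor tyrosine phosphatase (r = 0.99), Tfcp2l1, a transcription factor (0.99), and Adat2, a tRNA deaminase subunit (0.98). Nearest to the brighter Mndal probe set were Gpatch1 and the lymphatic growth factor Vegfc (both 1.00 when rounded) and Rpgrip1 (0.99). The probe set of Ifi205 and Ifi211 ran with the cell death gene Bcl2l11 (0.99), with Rpgrip1 (0.98) and with Chm (0.98). Rpgrip1 was thus near both, and it was also among the genes with large differences between the strains (-5.14; limma adjusted p = 0.0184). Ifi203, Ifi204 and Aim2, which did not separate the strains, had nearest genes of other kinds, led by Tfpi2 (0.98), Alcam (0.94) and Il1f10 (0.98).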

How the data were processed

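The authors deposited 1 log2 value per probe set and array. The submitters' processing notes name Expression Console and RMA, a method that subtracts background, equalizes array distributions and summarises the probes of a set. Versions, and which arrays were normalized together, are not given in the sources used here. Arrays were grouped by strain label, and replicate numbers follow accession order and pair nothing. Probe sets were named from the platform annotation, and 64 control probe sets were left out of tests. All 45037 others were fitted with limma 3.58.1 in R 4.3.3 (lmFit, eBayes, two-sided, NZO minus BKS), with Benjamini-Hochberg adjustment and a threshold of 0.05. Listed genes, neighbours and likeness used the probe set with the highest mean for each of 18193 genes with a probe set of 1 symbol. Of 251 entries in 17 gene lists, those matching no such probe set are not analysed here. GRCm38.p6 served for gene order, names and promoter sequence. The members, lists and alternatives were chosen with earlier results of these data known.

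All probe sets of the members are named. Of each list, up to 4 genes past the threshold are named, or the 2 of smallest p if none did, and further receptors, adaptors and markers by their role after their values were seen. Neighbours are the 15 measured genes on each side, of which those named beside Dusp23 were chosen after their values were seen. The fit was also run on simulated data with independent noise and no array effect. That run cannot speak to calls that depend on the setting. Alternatives are given in the closing section. The number of arrays limits the precision. Python 3.11.15 and matplotlib 3.10.9 made the figures.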

Additional observations from a re-analysis of the deposited data

How the results depend on the processing

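Directions of the member probe sets held in all alternatives for 10 of the 12. The own probe set of Ifi203 turned to -0.0118 without BKS replicate 2 and -0.0585 without NZO replicate 2 (range -0.0585 to 0.188 with 1 array left out). Aim2 turned to -0.0265 among 2 against 2 arrays and, with 1 array left out, ran from -0.0974 to 0.239, below 0 without BKS replicate 2, NZO replicate 1 or NZO replicate 3. All 6 of these values come from results that passed no threshold. Calls depended on the setting, and the cause was not tested: member probe sets past the threshold numbered 0 with all arrays, 2 with only probe sets of a strain mean of at least 6, 4 with a trended robust prior, 3 with array weights, 2 each with repeated quantile normalization and cyclic loess, 5 each with the number 1 arrays as a block (a batch inferred, not labelled) and among 2 against 2 arrays, 1 with 1 probe set a gene, and 0 to 0 with any 1 array left out. The brighter Mndal probe set passed in 8 of 14 alternatives and the other in 7 of 13, and those of Ifi202b in 3 of 13 and 3 of 12. The Mndal counts include the filter, which keeps a probe set by the higher of its strain means and tested only 5 of the 12. Its 2 calls are the Mndal probe sets, kept only through their BKS means (6.94 and 6.45), so they are no separate support. Neither Ifi202b probe set was kept. Leaving out each array in turn gave log2 fold changes of -3.41 to -2.54 and -3.09 to -2.19 for Mndal, and of 1.19 to 1.56 and 1.33 to 2.30 for Ifi202b. Counts over all probe sets in the order of the same alternatives were 191, 298, 373, 829, 604, 584, 1336 and 1192, and 26 to 272 with 1 array left out. Listed genes past the threshold numbered 4, with 3 under the filter on dim probe sets, 5 with the trended robust prior, 20 with array weights, 8 with repeated quantile normalization, 10 with cyclic loess, 22 with the block, 25 among 2 against 2 arrays, and 0 to 6 with 1 array left out. For listed genes the fit already holds 1 probe set a gene. No paired analysis was possible because the titles of the 2 strains share only the number 1. Low signal limits the fold sizes of Ifi202b and Mndal and any lower level of Ifi204 or Aim2.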
